A study of Mus musculus with 6 samples.

Results

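The 9 complement genes described here are those of the 3 chains of C1q (C1qa, C1qb and C1qc), of C3, C4b and properdin (Cfp), of the receptors for the fragments C3a and C5a (C3ar1 and C5ar1), and of decay-accelerating factor (Cd55). They were chosen by symbol from the 16179 genes of the deposited table. No measured value entered the rule, but the choice was made with earlier results of these data known. All 9 were found, and all 9 passed the filter on low values (a mean of at least 10 normalised reads over the 6 libraries), as 12821 genes did in all. The libraries come from microglia of the hippocampus of male mice aged 10 months of strain B6.129S4(FVB)-Grntm1.1Far/Mmja, in which the gene of progranulin (Grn) is deleted, and each library holds the cells of 2 pooled mice. Live CD11b+ cells with low CD45 were parted by BODIPY, a dye of neutral lipid, into a BODIPY-high group (rich in lipid droplets) and a BODIPY-low group (low in them), with 3 libraries each. Both groups carry the Grn deletion, and wild-type libraries were not analysed here. The labels do not say whether a BODIPY-high and a BODIPY-low library share mice, so p-values reflect the spread of these 6 libraries alone.

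Complement is a cascade of plasma and tissue proteins that tags surfaces for uptake or lysis. C1q is its pattern-recognition protein, built from A, B and C chains, and starts the classical pathway by way of C4 and C2. That leads to cleavage of C3, the component on which all the pathways converge. Properdin stabilises the C3 convertase of the alternative pathway, and decay-accelerating factor on the cell surface takes convertases apart. Microglia are the main source of C1q in the brain, and C1q and C3 are known for their part in the removal of synapses. In mice that lack progranulin, microglial complement has been studied as a cause of synapse loss.

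Total reads lay between 24982215 and 34899425 per library. Grn had 468 to 1614 normalised reads in BODIPY-high and 416 to 990.0 in BODIPY-low libraries, and where along the gene these reads lie was not analysed here. A normalised read count is a read count divided by the size factor of its library. A call is a limma p, adjusted over all tested genes by Benjamini-Hochberg, below 0.05. Where 3 values are given for a group, they are those of replicates 1, 2 and 3 in that order. Summed over 7 microglia markers (P2ry12, Tmem119, Cx3cr1 and others), BODIPY-high libraries held 1027693 to 1130363 and BODIPY-low libraries 1167054 to 1304098 normalised reads, so both groups carried the labelled cell type. Markers of other cells moved with the groups. All 8 choroid plexus markers were called higher, and their sum was 72993 to 114599 in BODIPY-high and 1514 to 8339 in BODIPY-low libraries. Of 9 neutrophil markers 8 were measured and 7 called lower, and their sum was 179 to 2172 in BODIPY-high and 27680 to 74638 in BODIPY-low libraries, with Elane at 0 in 2 BODIPY-high libraries. Summed monocyte markers lay at 544 to 1274 in BODIPY-high and 5938 to 12053 in BODIPY-low libraries, with 2 of the 5 tested called lower (Ly6c2 and Chil3), Plac8 at 0 in 1 BODIPY-high library and Vcan at 0 in all 3 BODIPY-low ones. Chil3 made up 88.5% of the BODIPY-low monocyte sum, and the other monocyte markers summed to 524 to 848 in BODIPY-high and 880.4 to 1030.0 in BODIPY-low libraries. The sums of the microglia, choroid plexus, neutrophil and monocyte lists each parted the groups without overlap. Further lists did so with BODIPY-high above. They were border macrophages (1599 to 2415 against 1080 to 1465) and oligodendrocytes (5906 to 7231 against 4627 to 5203). Endothelium (1185 to 1204 against 749 to 1075) and fibroblasts with mural cells (54.6 to 203 against 5.72 to 25.6) did so too. For each of these lists the exact two-sided permutation p was 0.1, the smallest that 3 against 3 libraries allow. Without Col1a2 the fibroblast and mural sums overlapped (11.9 to 51.0 against 5.72 to 21.3). Astrocyte markers summed to 7712 to 10288 and 6938 to 8033 normalised reads in BODIPY-high and BODIPY-low libraries, which overlapped, but Slc1a3 held most of that sum. Of the 7 astrocyte markers Sox9 (log2 fold change 4.10) and Aldoc (1.70) were called higher, and the list without Slc1a3 summed to 818 to 1487 in BODIPY-high and 266 to 368 in BODIPY-low libraries.

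Of the 9 complement genes, C3 and C3ar1 were called lower and Cd55 higher in BODIPY-high libraries, and 6 were not called. Of all 12821 tested genes 13.3% were called, 9.79% as higher and 3.52% as lower. In 5 of the 9 the groups did not overlap, with Cd55 and C1qb above and C3, C3ar1 and C5ar1 below, whereas 31.3% of all tested genes did not overlap, 18.0% with BODIPY-high above and 13.4% with it below. The fold changes ran from -2.22 to 4.39 on the log2(value + 1) scale, with a median of 0.12 over the 9 genes and -0.01 over all tested genes. The calls of C3 and Cd55 held in all 15 alternative analyses. That of C3ar1 held in 8 of them.

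**Figure D1:**
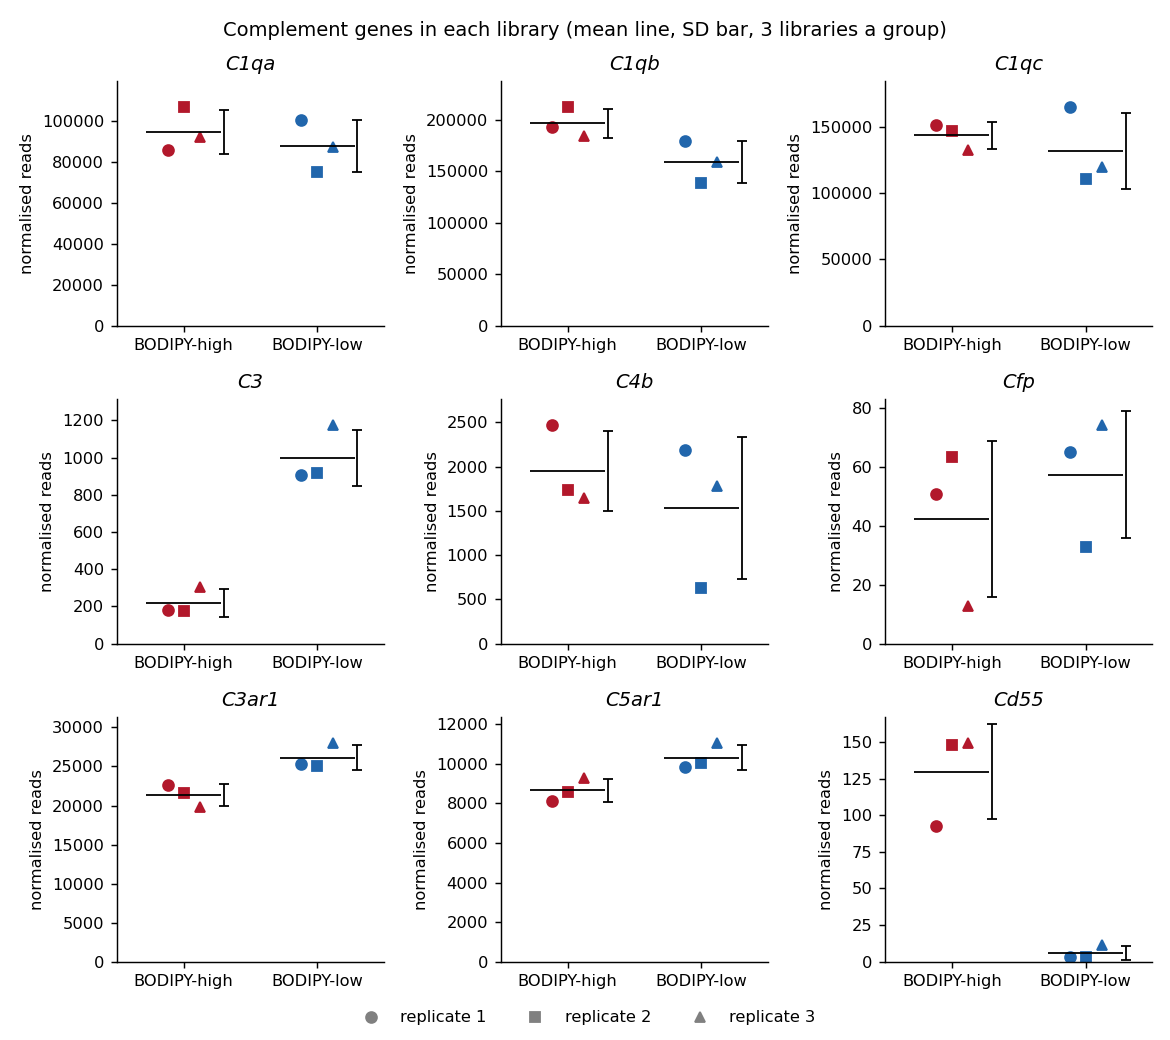
Normalised read counts of the 9 complement genes in each library, BODIPY-high in red and BODIPY-low in blue, with the group mean as a line and the SD as a bar (n = 3 each). The groups stand apart for C3, where BODIPY-high libraries lie at 173 to 305 and BODIPY-low ones at 907 to 1174, and for Cd55, while the C1qa, C1qc, C4b and Cfp points overlap.

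The promoter windows of 3 genes are shown because these genes behaved differently: C1qc values overlapped between the groups, C3 was lower and Cd55 higher in BODIPY-high libraries. The windows are the 250 bases before the RefSeq transcript start in build GRCm38.p6, on the minus strand, and were matched for 7 of the 9 genes. RefSeq and GENCODE M21 place some starts differently: 151 bases of the C1qc window, 202 of that of C5ar1 and 4 of that of C3ar1 lie inside the gene as GENCODE draws it. For C1qc only the 99 bases before the GENCODE gene are printed. The stretches shown are chr4:136893066-136893164 for C1qc, chr17:57228137-57228386 for C3 and chr1:130462745-130462994 for Cd55. Capitals mark matches, on either strand, to GAGGAAGT (the core bound by the myeloid factor PU.1) or TTGCNNAA (C/EBP). No match overlapped another.
C1qc: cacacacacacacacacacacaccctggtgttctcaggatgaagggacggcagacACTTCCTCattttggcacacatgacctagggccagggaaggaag
C3: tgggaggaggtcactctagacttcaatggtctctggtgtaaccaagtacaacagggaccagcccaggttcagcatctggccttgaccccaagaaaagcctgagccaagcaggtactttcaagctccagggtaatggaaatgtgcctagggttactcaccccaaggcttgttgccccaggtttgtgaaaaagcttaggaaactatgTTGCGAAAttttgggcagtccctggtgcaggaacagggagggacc
Cd55: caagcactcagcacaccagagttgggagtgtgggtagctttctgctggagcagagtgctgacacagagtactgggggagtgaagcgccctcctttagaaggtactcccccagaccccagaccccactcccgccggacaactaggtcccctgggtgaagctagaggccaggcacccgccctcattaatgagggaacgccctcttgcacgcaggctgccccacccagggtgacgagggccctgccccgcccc
In its whole window C1qc held 1 PU.1 match, on the opposite strand, and 2.44% of 32851 windows of that length hold one. C3 held 1 C/EBP match, with 9.56% of windows holding one. The Cd55 window held no match, nor did those of C1qb, Cfp, C3ar1 and C5ar1. A match is a run of letters and was not measured as a bound site here.

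The C1q genes were among the most abundant transcripts of both groups. They lie next to each other on chromosome 4 (GRCm38, minus strand), C1qb at 136880129 to 136886187, C1qc at 136889804 to 136893065 and C1qa at 136895917 to 136898803, with 3 exon blocks each in GENCODE M21 and no exon shared with another gene. By normalised reads per kb of exon, averaged over the 6 libraries, C1qb ranked 5, C1qa 6 and C1qc 8 of 15500 genes with an exon length. Together the 3 genes took 1.55% ± 0.0907 of all reads in BODIPY-high and 1.35% ± 0.197 in BODIPY-low libraries (SD, n = 3 each, p = 0.3 by an exact permutation test, two-sided).

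C1qa, the gene of the A chain, had 85675, 106760 and 91989 normalised reads in BODIPY-high libraries, against 100506, 75143 and 87409 in BODIPY-low libraries. The highest value lay in BODIPY-high replicate 2 and the lowest in BODIPY-low replicate 2, and the groups overlapped. limma gave a log2 fold change of 0.12 (95% interval -0.15 to 0.38, adjusted p = 0.585). C1qc, the gene of the C chain, had 151490, 147425 and 132542 normalised reads in BODIPY-high libraries, against 165084, 110929 and 119824 in BODIPY-low libraries. Its groups also overlapped, since BODIPY-low replicate 1 was the highest of all 6 libraries (log2 fold change 0.14, interval -0.16 to 0.44, adjusted p = 0.554). The intervals of both genes exclude a change of 1 in either direction on the log2 scale.

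C1qb, the gene of the B chain, had 192797, 212214 and 184606 normalised reads in BODIPY-high libraries, against 179301, 138302 and 158562 in BODIPY-low libraries. The groups did not overlap, with BODIPY-high on top by a small margin between BODIPY-high replicate 3 and BODIPY-low replicate 1. The log2 fold change was 0.31 (interval 0.07 to 0.55) and its adjusted p of 0.0865 missed the threshold. C1qb was called by DESeq2 (adjusted p = 0.0293), with the robust variance (0.0455), with the replicate number as a block (0.0258) and without BODIPY-low replicate 1 (0.0292), but not in the other 11 alternatives.

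Per kb of exon, the chains kept 1 order in every library, C1qb above C1qa above C1qc. The level of C1qb was 2.15, 1.90 and 1.92 times that of C1qa in BODIPY-high libraries, against 1.71, 1.76 and 1.73 times in BODIPY-low libraries. That ratio averaged 1.99 ± 0.139 in BODIPY-high and 1.73 ± 0.0252 in BODIPY-low libraries (SD, n = 3 each, p = 0.1 by the exact permutation test, which cannot go lower), and the groups did not overlap. The level of C1qc relative to C1qa was 0.824 ± 0.112 in BODIPY-high and 0.806 ± 0.0741 in BODIPY-low libraries, which overlapped (p = 0.8 by the same exact permutation test). These ratios rest on the exon lengths of GENCODE M21, which join all annotated transcripts of a gene.

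**Figure D2:**
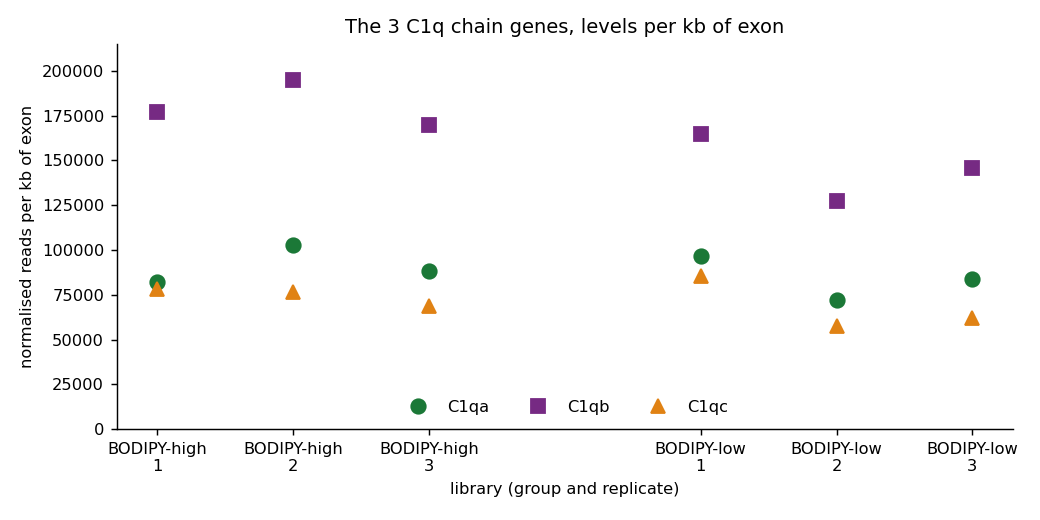
Levels of C1qa, C1qb and C1qc in normalised reads per kb of exon, by library, with BODIPY-high replicates on the left and BODIPY-low replicates on the right. C1qb is the highest in all 6 libraries, between 169674 and 195050 in BODIPY-high and between 127116 and 164798 in BODIPY-low ones, and C1qc the lowest.

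C3, the central component of the cascade, was lower in BODIPY-high libraries. It had 181, 173 and 305 normalised reads in BODIPY-high libraries, against 907, 920.0 and 1174 in BODIPY-low libraries. Every BODIPY-high library lay far below every BODIPY-low one, and replicate 3 was the highest of its group on both sides. The BODIPY-high mean was 22.0% of the BODIPY-low mean, with a log2 fold change of -2.22 (SE 0.22, interval -2.71 to -1.73, limma adjusted p = 1.35e-04). With each library left out in turn the fold change stayed between -2.48 and -2.07 and the call held. The gene lies on chromosome 17 (57203970 to 57228136, minus strand), in 42 exon blocks that overlap no other gene. Per kb of exon, C3 was far below C1q: the mean of the C1q chains was 1836 to 3700 times the C3 level in BODIPY-high and 426 to 656 times in BODIPY-low libraries.

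Neutrophil markers (7 of 8) and the monocyte markers Ly6c2 and Chil3 were called lower in BODIPY-high libraries, as C3 was, while Ccr2, Fn1 and F13a1 were not called. The BODIPY-high sum was 0.0213 of the BODIPY-low sum for neutrophil markers and 0.0999 for monocyte markers (0.692 without Chil3), against 0.22 for C3. The monocyte markers other than Chil3 were mixed. F13a1, also on the border macrophage list, had means of 489 in BODIPY-high and 321 in BODIPY-low libraries. Means in the same order were 12.6 and 267 for Ly6c2, 59.6 and 185 for Fn1, and 96.4 and 172 for Ccr2. Within BODIPY-low libraries the neutrophil sum was highest in replicate 1, at 74638, where C3 was lowest, at 907, though close to the 920.0 of replicate 2. Within BODIPY-high libraries the neutrophil sum was highest in replicate 2, at 2172, where C3 was lowest, at 173, though close to the 181 of replicate 1. It was lowest in replicate 3, at 179, where C3 was highest. The part of the neutrophil and monocyte markers in the fall of C3 was not tested. In bulk libraries such as these, fewer cells of a type and less RNA per cell cannot be told apart.

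**Figure D3:**
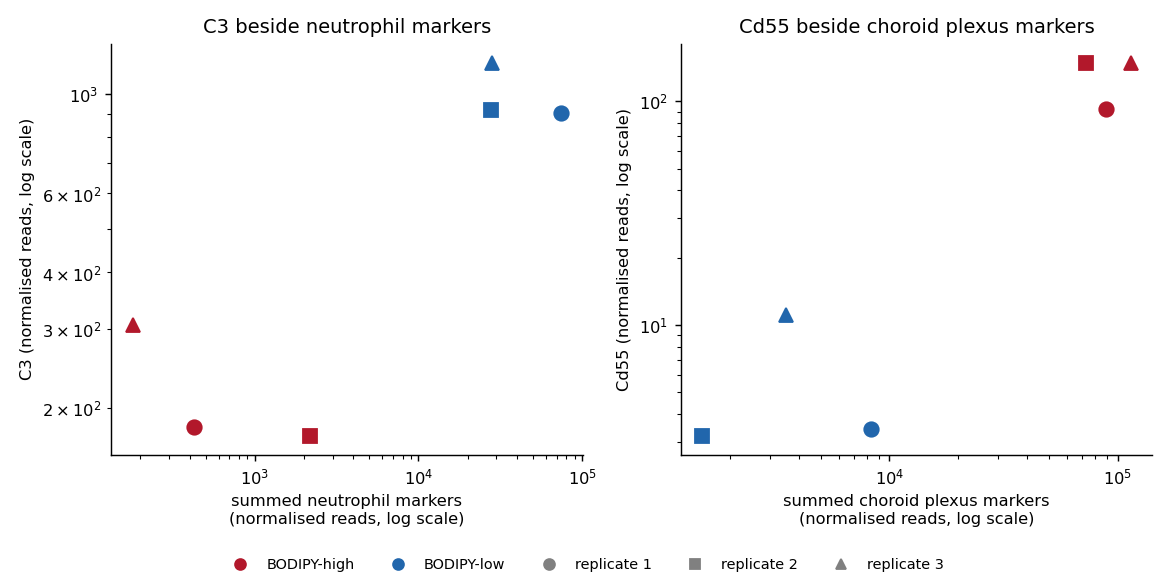
C3 against the summed neutrophil markers (left) and Cd55 against the summed choroid plexus markers (right), in normalised reads on log axes, 1 point per library, BODIPY-high in red and BODIPY-low in blue. Both genes part the groups. In both groups the library with the highest neutrophil sum has the lowest C3, but only by a small margin. The lowest 2 values of C3 are 907 and 920.0 in BODIPY-low and 173 and 181 in BODIPY-high libraries.

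C4b and properdin varied more between libraries of a group than between the groups. C4b, which encodes the C4 that C1q activation cleaves, had 2468, 1735 and 1649 normalised reads in BODIPY-high libraries, against 2187, 633 and 1780 in BODIPY-low libraries. BODIPY-low replicate 2 stood below the other 5 libraries, which overlapped. The log2 fold change was 0.51 (SE 0.37, interval -0.30 to 1.31, adjusted p = 0.419), and without BODIPY-low replicate 2 it was -0.04. C4b lies on chromosome 17 (34728380 to 34743882) close to its near-identical copy C4a. C4a was not among the genes of the deposited table, so how reads common to both were counted is uncertain. Cfp had 50.9, 63.4 and 12.7 normalised reads in BODIPY-high libraries, against 65.2, 33.0 and 74.2 in BODIPY-low libraries. BODIPY-high replicate 3 was the lowest, the rest were mixed, and the interval was wide (log2 fold change -0.63, interval -1.94 to 0.68, adjusted p = 0.553). Without BODIPY-high replicate 3 the Cfp fold change was 0.06. Both intervals leave room for changes above 1 on the log2 scale, upward for C4b and downward for Cfp.

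Of the receptors of the anaphylatoxins, C3ar1 was called lower in BODIPY-high libraries by a narrow margin and C5ar1 was not called. C3ar1, the receptor of C3a, lies on chromosome 6 (122847138 to 122856161). Its values were 22684, 21578 and 19811 normalised reads in BODIPY-high libraries, against 25281, 25062 and 27961 in BODIPY-low libraries. The groups did not overlap, and the BODIPY-high mean was 81.8% of the BODIPY-low mean (log2 fold change -0.29, SE 0.08, interval -0.48 to -0.10, limma adjusted p = 0.0455). The call was lost with edgeR (0.0577), with no filter on low values (0.0590) and without any 1 of the libraries other than BODIPY-high replicate 1 (adjusted p = 0.0576 to 0.191). C5ar1, the receptor of C5a, lies on chromosome 7 (16246743 to 16259540). Its values were 8130, 8598 and 9269 normalised reads in BODIPY-high libraries, against 9859, 10026 and 11035 in BODIPY-low libraries. Its groups did not overlap either, but the adjusted p was 0.0826 (log2 fold change -0.25, interval -0.44 to -0.06), and DESeq2 (0.0462) and the block (0.0286) called it.

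Per kb of exon, C3ar1 ranked 156 and C5ar1 249 of 15500 genes, far above C3, which ranked 6338. The C3ar1 level was 1.48 ± 0.196 times that of C5ar1 in BODIPY-high and 1.51 ± 0.0200 times in BODIPY-low libraries (SD, n = 3 each, p = 0.8 by the exact permutation test). The summed microglia markers were also lower in BODIPY-high libraries, at 0.875 of the BODIPY-low sum, with 1 of 7 (Cx3cr1) called lower. The markers were mixed. Log2 fold changes were -0.39 for Cx3cr1, -0.27 for Tmem119, -0.21 for Sall1, -0.19 for P2ry12 and -0.17 for Csf1r. Those of Fcrls (0.10) and Siglech (0.15) lay above 0. The part of the microglia markers in the receptor values was not tested.

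Cd55, the membrane protein that takes C3 convertases apart, was barely detected in BODIPY-low libraries and higher in BODIPY-high ones. It had 92.3, 148 and 149 normalised reads in BODIPY-high libraries, against 3.43, 3.20 and 11.1 in BODIPY-low libraries. No library of 1 group came near the other, on 417 reads in BODIPY-high and 18 in BODIPY-low libraries in all. The ratio of means was 22.0, with a log2 fold change of 4.39 (SE 0.55, interval 3.18 to 5.60, limma adjusted p = 4.72e-04), and between 4.13 and 4.89 with 1 library left out. Even so, Cd55 stayed a scarce transcript, at 26.8 normalised reads per kb in BODIPY-high and 1.22 in BODIPY-low libraries. It lies on chromosome 1 (130439027 to 130462744) beside its close copy Cd55b, which was not among the genes of the deposited table. The exons of Cd55 overlap the antisense gene Gm16083 by 102 bases, so reads in that overlap or common to Cd55b are uncertain.

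Markers of the choroid plexus rose along with Cd55, with a BODIPY-high sum 20.7 times the BODIPY-low sum, against 22.0 for Cd55. With each library left out in turn, the log2 ratio of these sums ranged from 3.96 to 5.19, against 4.37 with all libraries. In the same runs the limma log2 fold change of Cd55, a different measure taken on log2(value + 1), ranged from 4.13 to 4.89. Within BODIPY-low libraries the choroid plexus sum was highest in replicate 1, at 8339, where Cd55 had 3.43 normalised reads, while replicate 3, with a sum of 3534, had 11.1. BODIPY-low replicate 2 was the lowest in both, with a sum of 1514 and 3.20 normalised reads of Cd55. Within BODIPY-high libraries replicate 3 was the highest in both, with a sum of 114599 and 149 normalised reads of Cd55. BODIPY-high replicate 2 had the lowest sum, at 72993, with 148, and replicate 1 had 88991, with 92.3. The part of these markers in the rise of Cd55 was not tested.

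Among 57 other complement genes listed by role, 38 were in the table and 26 passed the filter on low values. Of the 26, 4 were called higher and 5 lower, where 9.79% and 3.52% of all tested genes were, with a median log2 fold change of 0.11 against -0.01 over all tested genes. All 4 that rose were regulators, out of 10 tested. Clu, which encodes clusterin, a blocker of the membrane attack complex and a lipid carrier, had 9317, 7175 and 12093 normalised reads in BODIPY-high libraries, against 715, 266 and 456 in BODIPY-low libraries (log2 fold change 4.39, SE 0.30, limma adjusted p = 2.1e-05). Cd59a, which stops the last step of that complex, had 351, 331 and 597 in BODIPY-high libraries, against 34.3, 7.46 and 28.8 in BODIPY-low libraries (4.31, adjusted p = 3.02e-04). Vtn, the gene of vitronectin, rose by 3.53, and Serping1, the inhibitor of C1r and C1s, by 4.01, with limma adjusted p of 0.00115 and 0.0115. In BODIPY-low libraries these rest on 38 reads for Vtn and 17 for Serping1 in all, with Serping1 at 0 in replicate 2. Serping1 lost its call without BODIPY-high replicate 3 (0.0556), and its fold change was 2.98 without BODIPY-low replicate 2 and 4.83 without BODIPY-low replicate 3. That of Cd59a was 3.67 without BODIPY-low replicate 2. The choroid plexus markers rose beside these 4 genes by a median of 4.60 on the log2 scale, and their part was not tested.

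Of 8 other receptors tested (for C1q, C3 fragments and C5a), 3 were called lower and none higher, where 3.52% of all tested genes were called lower. The median log2 fold change was -0.10 over these 8 receptors and -0.19 over the 7 microglia markers, of which Cx3cr1 (-0.39) was called. The part of the microglia markers in these falls was not tested. Lair1, an inhibitory receptor that binds C1q, had 19907, 20032 and 19545 normalised reads in BODIPY-high libraries, against 24445, 25934 and 26579 in BODIPY-low libraries (log2 fold change -0.37, SE 0.07, adjusted p = 0.00790). Itgam, the CD11b chain of complement receptor CR3 and itself a marker of the sort, fell by 0.33 (adjusted p = 0.0156), whereas its partner Itgb2 had a fold change of -0.03 (interval -0.19 to 0.14, adjusted p = 0.861). The call of Itgam was lost without BODIPY-high replicate 3 (0.0761) or BODIPY-low replicate 2 (0.0660), and its exons overlap Gm49368 on the same strand. C5ar2, the second receptor of C5a, had 2542, 2978 and 3064 normalised reads in BODIPY-high libraries, against 3581, 3921 and 4669 in BODIPY-low libraries (-0.50, adjusted p = 0.0174), and lost its call without BODIPY-low replicate 3 (0.0880). Calr, whose product calreticulin binds C1q on dying cells, had a fold change of -0.09 (interval -0.29 to 0.11, adjusted p = 0.591). Lrp1, an endocytic receptor of many ligands, had 16978, 19736 and 19230 normalised reads in BODIPY-high libraries, against 18205, 17339 and 21596 in BODIPY-low libraries, which overlapped (log2 fold change -0.03, interval -0.25 to 0.19, adjusted p = 0.898).

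Csmd3, a large membrane protein with complement control domains, fell by 0.69 (adjusted p = 0.00844). Fcnb, or ficolin B, a lectin of the myeloid lineage, was nearly absent from BODIPY-high libraries: it had 2.83, 37.4 and 1.59 normalised reads in BODIPY-high libraries, against 545, 272 and 343 in BODIPY-low libraries (-5.68, adjusted p = 0.00125). The Fcnb fold change was -6.88 without BODIPY-high replicate 2 and -4.94 without BODIPY-high replicate 3. Neutrophil markers fell beside Fcnb, with a median log2 fold change of -5.71, and BODIPY-high replicate 2 was the highest of its group for both. Of the 7 genes listed for the terminal pathway only C8g was tested, and it was not called (log2 fold change -0.40, adjusted p = 0.397).

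**Figure D4:**
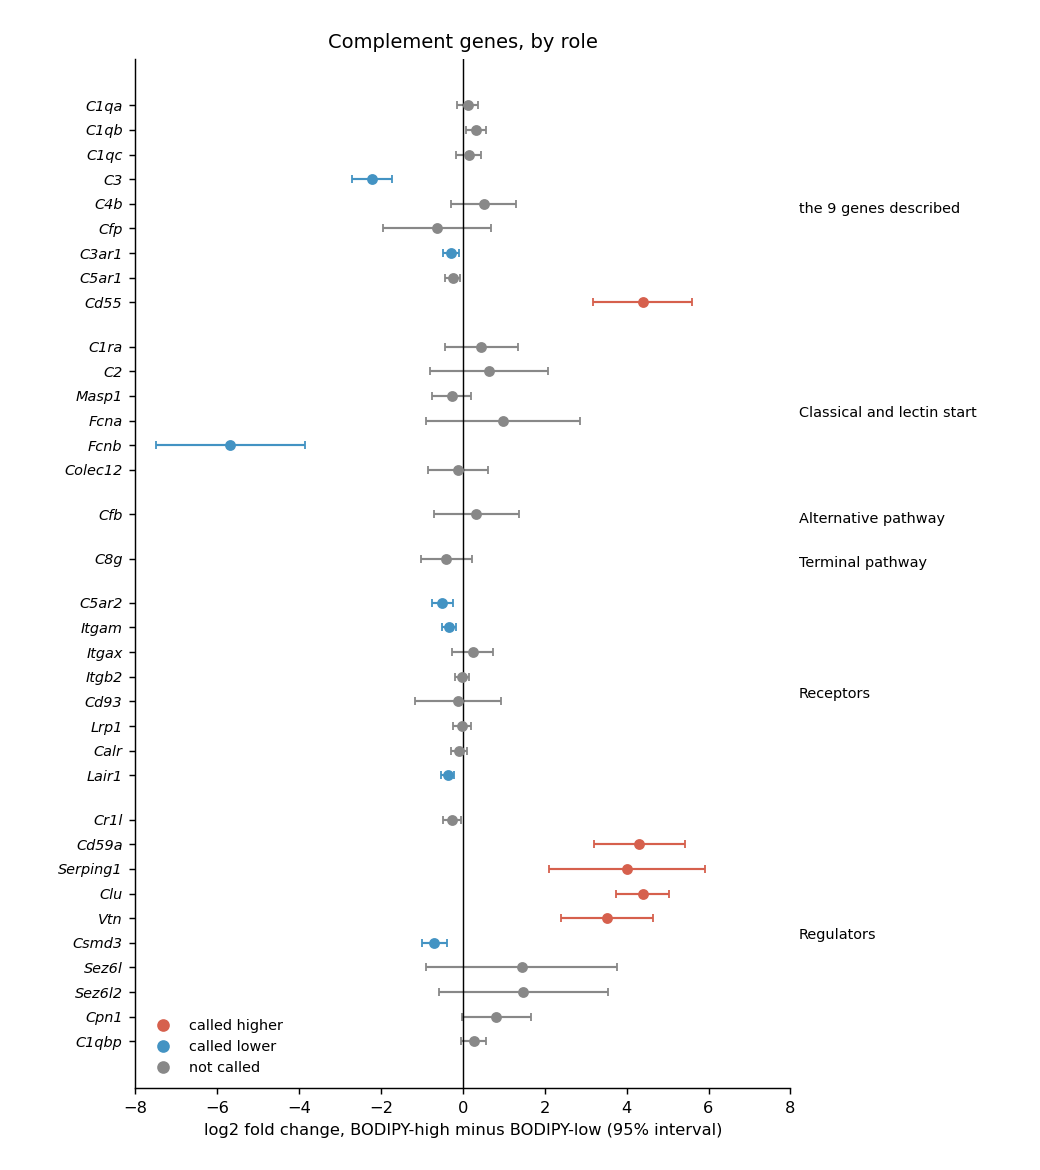
Log2 fold changes, BODIPY-high minus BODIPY-low, with 95% intervals from limma, for the 9 genes at the top and the 26 other tested complement genes below them by role (red called higher, blue called lower, grey not called). Rises lie at Cd55 and among the other regulators, falls at C3, among the receptors (C3ar1, C5ar2, Itgam, Lair1) and at Fcnb and Csmd3. The intervals of C1qa and C1qc span 0, while that of C1qb (0.07 to 0.55) lies above 0, though C1qb was not called.

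Patterns were compared by Pearson correlation over the 6 libraries, among 9588 genes with a mean of at least 100. Symbols of Gm plus digits, ending in Rik, or starting with digits and a dash were left out. The patterns most like that of C1qa were those of Bola2 (0.990), Eif4ebp1 (0.989) and Rpl13a (0.985). Most like C3 were those of Pisd-ps2 (0.998), Smim3 (0.996) and Tmpo (0.993). For C4b they were Exosc3 (0.986), Mrpl2 (0.983) and Eid2b (0.981), and for Cfp Tubd1 (0.982), Kif20a (0.975) and Uhrf1bp1 (0.968). All genes of a library share its depth and cell makeup, so these values only describe likeness.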

How the data were processed

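Per the labels' protocols and the series' design text, RNA was amplified with SmartSeq v4, libraries were made with Nextera XT, reads were mapped to mm10 with STAR 2.5.3a and counted per gene by STAR. The submitters' processing notes also list mm9, FastQC 0.11.4 and DESeq2. Not given in the sources used here are the annotation and the strand setting. The deposited values are a signal that the authors made by dividing each read count by 1 size factor per library: 100% of nonzero values were whole multiples of their library's smallest value, to within 0.01 read (largest distance 0.00116).

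A two-sided limma test (3.58.1, R 4.3.3) with a variance trend and no block was run on log2(value + 1) for 12821 genes with a mean of at least 10, and p-values were adjusted over all of them. A higher pseudocount shrinks the change of low genes, but the limma values are not always the smaller ones. For Fcnb limma gave -5.68, edgeR -4.92 and DESeq2 -4.81. For Serping1 they gave 4.01, 3.54 and 3.58, and for Cd55 4.39, 4.38 and 4.42. Fold changes are BODIPY-high minus BODIPY-low. edgeR 4.0.16 (quasi-likelihood) and DESeq2 1.42.0 on recovered reads, other pseudocounts, filters, scalings, a robust variance, a replicate block and leaving out each library were alternatives, and the limma fit was tested on simulated counts. Exon lengths and coordinates are from GENCODE M21 (GRCm38), with a length for 95.8% of the genes. The genes and lists were chosen with earlier results of these data known. Named beside the 9 genes are the other complement genes that were called and the 5 of highest mean. A further 2 genes of the lists are not reported here and were left out of every list count and sum. Markers of border macrophages, oligodendrocytes, endothelium, and fibroblasts with mural cells had summed BODIPY-high to BODIPY-low ratios of 1.58, 1.30, 1.37 and 6.26 (1.75 for the last without Col1a2).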

Additional observations from a re-analysis of the deposited data

How the results depend on the processing

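The 15 alternatives left C3 (-2.48 to -2.07) and Cd55 (3.67 to 4.89) called with their direction. Genes of the 9 called lower numbered 2, and 1 with no filter on low values and with edgeR, 3 with DESeq2 and the replicate block, and 1 to 2 with 1 library left out. Those called higher numbered 2 with the robust variance and with DESeq2, and 1 to 2 with 1 library left out. With the replicate number as a block (replicate block), the 9 held 2 called higher, and 760 genes of the table were called lower, against 451. Same-numbered libraries deviated together with correlations of 0.11, 0.144 and 0.073, each the best match of its library. The sample titles share these numbers, but the labels do not say that a number marks a shared pool of mice. With 1 library left out, calls over the table ranged from 662 to 1309 higher and from 151 to 527 lower (662 and 219 without BODIPY-high replicate 3, 180 and 151 without BODIPY-low replicates 2 and 3). In the same runs C4b ranged from -0.04 to 0.85, Cfp from -1.05 to 0.06, Calr from -0.16 to 0.00 and Lrp1 from -0.09 to 0.07 (log2), none of them called, and the cause was not tested. With a pseudocount of 5 the log2 fold changes of Cd55, Serping1 and Fcnb were 3.67, 2.93 and -4.86. Without the marker of highest mean, an alternative chosen after seeing the data, no marker list changed direction. Without BODIPY-high replicate 2 the log2 ratio of summed neutrophil markers was -7.17, against -5.56. Cd55, at 18 reads over BODIPY-low libraries, Serping1, at 17, Vtn, at 38, and Cfp are limited by depth, and a mean of 3 libraries limits every value.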
